A study of Mus musculus with 37 samples.

Results

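Gm26870, Gm10715, Gm10717, Gm10718, Gm10800, Gm10801 and Gm21738 are predicted mouse genes built on tandemly repeated, satellite-like sequence, and they were chosen by their higher counts at metaphase II (MII) than at the germinal vesicle (GV) stage. They are 7 of the 54752 genes in the gene tables, spike-ins left out, and they have 18 of the 138835 annotated transcripts in the transcript table. Because the GV and MII oocytes of batch A picked them, every value of theirs from that contrast is given as a description. This holds for the RSEM gene, HTSeq gene and RSEM transcript tables alike. Counts of calls among them are printed, but the choice fixed their outcome and nothing is read from them. The GV and metaphase I (MI) oocytes of batch B were not used in the choice and carry the test.

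Mouse centromeres are flanked by major satellite, a tandem repeat that is packed into constitutive heterochromatin. The histone methyltransferases Suv39h1 and Suv39h2 mark this chromatin, HP1 proteins such as Cbx5 bind the mark, and the repeat is transcribed at low levels that differ between cell types and phases of the cell cycle. A fully grown GV oocyte has largely stopped transcription, so its maturation runs on stored RNA that is translated, re-adenylated or degraded between the GV stage and MII. Genes named Gm are predicted models, and no function is known for these 7. Their likeness to annotated major satellite was not measured, since no repeat library was at hand.

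Single oocytes of C57BL/6 females aged 6 to 8 weeks were sequenced by Smart-seq2, which primes complementary DNA on poly(A) tails and amplifies it by PCR without molecular identifiers. Batch A holds 6 GV and 6 MII oocytes, and batch B holds 10 GV and 15 MI oocytes, 37 in all. Females received pregnant mare serum gonadotropin (PMSG), and ovaries taken 48 h later gave the GV oocytes. MI oocytes were denuded GV oocytes kept for 8 h in M16 medium. For MII oocytes PMSG was followed by human chorionic gonadotropin (hCG), with collection from the ampulla another 15 h later. The cells were picked by their morphology and had lost the zona pellucida and the polar body before lysis, so a satellite transcript in a polar body would not be counted, and MI oocytes matured in a dish while MII oocytes matured in the animal. No batch holds both MI and MII oocytes, so a difference between those stages cannot be told apart from a difference between batches.

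Total RSEM counts, the depth of each library, ran from 7509875 to 12648629 in the GV oocytes of batch A, with a median of 10014033. The MII oocytes had 9930485 to 13988444, with a median of 10509159. In batch B the GV oocytes had 7184205 to 17724506, with a median of 11548242, and the MI oocytes 2709280 to 19390128, with a median of 12840734. At these depths a floor of 3 counts equals 0.155 to 1.11 CPM (counts scaled to library size), and intervals and floors cover counting error only, since PCR copies cannot be recognised without molecular identifiers.

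Several libraries stood apart, and some shares of all genes quoted below rest on single ones. Without MI oocyte 15 edgeR called 249 of 32393 genes from GV to MI, in place of 40 of 32444 (0.123%). Without MII oocyte 1 it called 397 of 32895 genes higher at MII, in place of 895 of 36863 (2.43%). MII oocyte 1 had 29518 genes with a count, against 19273 to 22244 in the other 5 MII oocytes, and 1198 of 1731 sensory receptor genes with a count, against 418 to 682. GV oocyte 1 of batch A had the lowest total in its group and 44663 spike-in counts, against 73131 or more in the other 5. MI oocyte 15 had the lowest total of all 37, 2709280. In MI oocytes 4, 8 and 9 the HTSeq table held 1.07 to 1.13 times the RSEM count at the median gene, against 1.98 to 2.20 times in the other 34 oocytes, and the HTSeq table gave the 7 genes together 0 to 8 counts in those 3 oocytes, where RSEM gave 118 to 124.

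The cells carried general oocyte markers, which do not check the stage labels. All 10 oocyte markers, among them the zona pellucida genes Zp1, Zp2 and Zp3 and the growth factor genes Gdf9 and Bmp15, had a count in every group, and their summed level was 6281 to 21984 CPM in batch A and 2313 to 6731 CPM in batch B, with Gdf9 the most abundant. Between GV and MII 4 of the 10 were lower by the edgeR quasi-likelihood test, Zp1, Zp2, Zp3 and Ooep, where 2.62% of all genes were, and 0 were higher. Without MII oocyte 1 it was 3 of the 10, where 928 of 32895 genes were lower, and with ERCC scaling 6, where 3842 of 36863 were. Between GV and MI 0 of 10 were called by edgeR, where 0.123% of all 32444 genes were, or by DESeq2, where 186 were. At an unadjusted p under 0.05 were 3 and 4 of 10, against 5427 and 2299 of all genes.

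All 7 genes were higher at MII than at GV in the fit on batch A, where 2.43% of the 36863 genes tested passed as higher. The limits are a 2-fold change and an adjusted p of 0.05. Without MII oocyte 1 397 of 32895 genes passed as higher. The contrast selected the 7 genes, so nothing is read from their count. Summed over the 7, the GV oocytes of batch A had a lowest level of 14.2, a median of 33.0 and a highest of 209.7 CPM in RSEM counts. The MII oocytes had a lowest level of 89.3, a median of 367 and a highest of 4589 CPM. MII oocyte 1 was the highest and MII oocyte 2 the lowest of the 6, and 4 of the 6 lay above every GV oocyte. The groups overlapped through GV oocyte 1 alone, since the second highest GV oocyte, number 5, had 38.3 CPM and all 6 MII oocytes lay above it.

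One oocyte carries much of the mean. The ratio of the MII mean to the GV mean was 17.7 with all 12 oocytes, 5.56 without MII oocyte 1, and 36.9 without GV oocyte 1. Without MII oocyte 1 the other 5 had a median of 241 and a highest of 659 CPM, and the ratio of medians went from 11.1 to 7.29. In MII oocyte 1 the 7 genes took 0.459% of all counts (95% Wilson interval 0.455 to 0.463), whereas they took at most 0.0659% in the other MII oocytes.

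**Figure D1:**
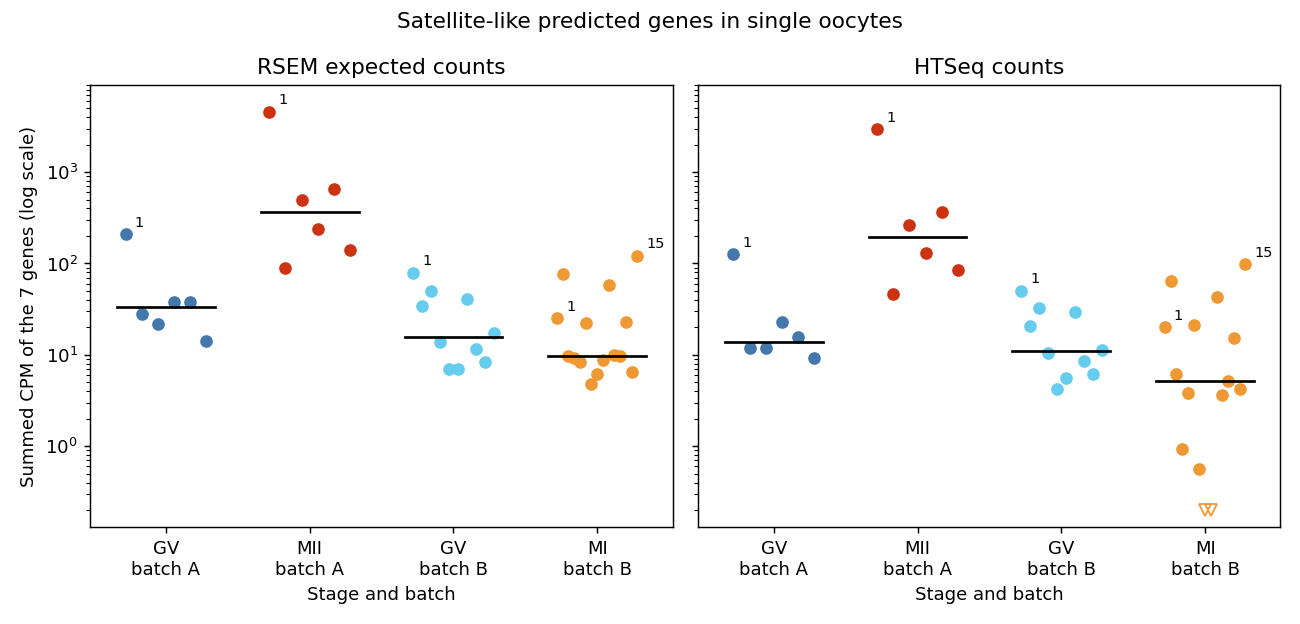
Summed level of the 7 satellite-like genes in each of 37 single oocytes, in CPM on a log axis, from RSEM expected counts (left) and HTSeq counts (right), by stage and batch. Points are oocytes in the order of their numbers, black bars are group medians, open triangles are oocytes at 0 counts, and numbers mark oocyte 1 of each group and MI oocyte 15. MII oocyte 1 is the highest in both tables, and all MII oocytes but numbers 2 and 6 lie above GV oocyte 1 of batch A.

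Gm26870 is the only long noncoding RNA among the 7 and took the largest part of their RSEM counts. Of the RSEM counts of the 7 and 6 relatives on chromosome 9, described below, it took a median of 62.3% per oocyte over all 37. Gm26870 lies on the minus strand at chr9:3000282-3038313 (mm10), near the centromeric end of the chromosome, with 3 transcripts. Its level in the GV oocytes of batch A was 8.43 at the lowest, 20.9 at the median and 139 CPM at the highest, and in the MII oocytes 55.6, 241 and 3085 CPM. The 2 ranges overlapped through GV oocyte 1. The fitted log2 fold change from GV to MII was 4.37, and 2.78 without MII oocyte 1, where the median was 154 and the highest 437 CPM.

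Over the span of Gm26870, on the plus strand, lie the protein-coding models Gm10718 (chr9:3023547-3025218), Gm10717 (chr9:3025417-3033289) and Gm10715 (chr9:3036877-3038316). Gm10718 went from 1.31, 1.85 and 16.6 CPM (lowest, median and highest GV oocyte) to 6.83, 24.7 and 304 CPM in the MII oocytes. Gm10717, which has 9 annotated transcripts, had 0.251, 0.620 and 9.65 CPM in GV and 2.97, 13.3 and 148 CPM in MII oocytes. Gm10715 had 0.111, 0.370 and 3.31 CPM in GV and 0.741, 3.36 and 54.0 CPM in MII oocytes. For each of these 3 genes MII oocyte 1 was the highest, 3 of 6 MII oocytes lay above GV oocyte 1, and all 6 lay above the other 5 GV oocytes. Their log2 fold changes were 4.24, 4.36 and 4.12, and 2.75, 2.84 and 2.46 without MII oocyte 1. In the other 5 MII oocytes their medians were 15.97, 7.95 and 2.15 CPM.

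Gm10801 (chr2:98662237-98664083, plus strand) and Gm10800 (chr2:98666547-98667301, minus strand) are neighbours on chromosome 2. Gm10800 was at 2.76, 6.07 and 33.4 CPM in the lowest, median and highest GV oocyte of batch A and at 17.3, 67.7 and 793 CPM in the MII oocytes. Gm10801 was at 0.0814, 0.611 and 2.83 CPM in GV and at 1.75, 5.64 and 68.4 CPM in MII oocytes. Both were highest in MII oocyte 1 and overlapped between the stages through GV oocyte 1, with 4 of 6 MII oocytes above it. The log2 fold change was 4.42 for Gm10800 and 4.28 for Gm10801, and 2.92 and 2.63 without MII oocyte 1, where the medians were 48.2 and 3.76 CPM.

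Gm21738 stands by itself on chromosome 14 (chr14:19415857-19418930, minus strand). In batch A its level was 0.358, 1.52 and 4.64 CPM in the lowest, median and highest GV oocyte and 4.15, 10.9 and 136 CPM in the MII oocytes. All but 1 of the 6 MII oocytes lay above GV oocyte 1. Its log2 fold change was 4.34, and 2.76 without MII oocyte 1, where the median was 8.53 CPM.

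Over the 7 genes the stages separated fully in 0 cases, in RSEM or in HTSeq counts. The fitted log2 fold changes ran from 4.12 to 4.42 with all 12 oocytes, from 2.46 to 2.92 without MII oocyte 1, and from 4.86 to 6.22 without GV oocyte 1. Across all genes tested the median log2 fold change was 0.27, and it was 0.02 without MII oocyte 1. When libraries were scaled to the ERCC spike-ins, RNAs of known amount added to batch A, that median was -0.39 and the 7 genes had log2 fold changes of 3.35 to 3.61. That scaling shifts all genes alike, so it could not change the sign of values of this size.

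**Figure D2:**
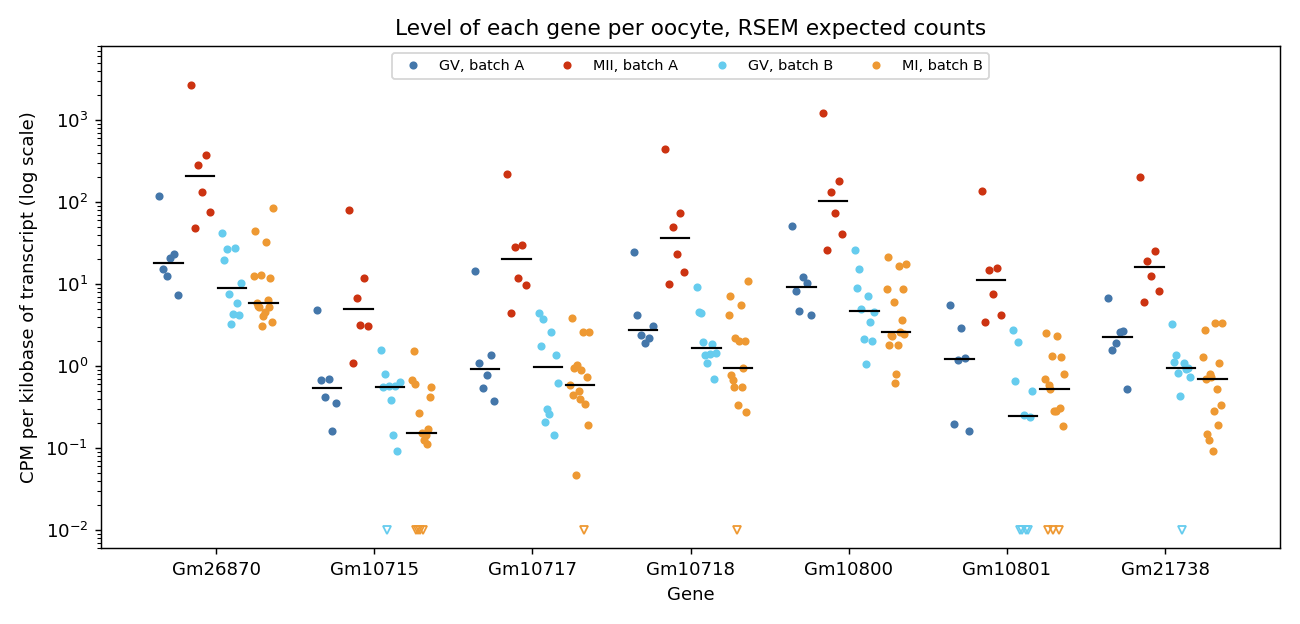
Level of each of the 7 genes in every oocyte as CPM per kilobase of mean transcript length, on a log axis, from RSEM expected counts. Points are oocytes coloured by stage and batch, black bars are medians above 0, and open triangles are oocytes at 0 counts. For each gene the highest point is an MII oocyte of batch A, number 1.

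The lengths of the 29 transcripts of these genes and their relatives are all multiples of 3 and are called coding length here, except in Gm26870, which is annotated as noncoding. Per kilobase of transcript the median MII level was 208 CPM for Gm26870, 103 for Gm10800, 36.3 for Gm10718, 19.9 for Gm10717, 15.9 for Gm21738, 11.2 for Gm10801 and 4.96 for Gm10715. The ranges of neighbours in that order overlapped among the 6 MII oocytes. The genes share many words, so how reads were divided among them is uncertain, and the part of that division in this order was not tested.

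HTSeq divided the same libraries very differently. Over all 37 oocytes HTSeq gave Gm26870 583 counts where RSEM gave it 53280, and gave Gm10800 45624 where RSEM gave it 14091. MII oocyte 1 alone held 33744 of the RSEM counts of Gm26870 and 29162 of the HTSeq counts of Gm10800. Gm10801 had 5.79 times as many HTSeq as RSEM counts and Gm21738 2.16 times. The value of Gm21738 lies within the 1.98 to 2.20 times of the median gene in 34 oocytes. Without MII oocyte 1 it was 1.95, below that range. Gm10717 had 0.285, Gm10715 0.0485 and Gm10718 0.0319 times as many HTSeq as RSEM counts. Thus, of the pooled counts of the 7 genes and 6 relatives on chromosome 9, described below, Gm10800 took 76.1% in HTSeq. In RSEM Gm26870 took 63.5% of them. The HTSeq sum of the 7 was 9.34, 13.9 and 126 CPM in the lowest, median and highest GV oocyte of batch A. In the MII oocytes it was 46.0, 195 and 2973 CPM. Of the 7 genes 6 were called higher at MII with HTSeq counts, where 281 of 41296 genes were. The oocytes of this contrast chose the genes, so nothing is read from that count. The ratio of HTSeq means was 19.5, and 5.40 without MII oocyte 1.

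Of the 18 transcripts 9 were called higher at MII, where 0.456% of 92765 transcripts were, and again the contrast had selected the genes. All 3 transcripts of Gm26870 and the single transcripts of Gm10718, Gm10800, Gm10801 and Gm21738 were among the 9, with 1 of 9 transcripts of Gm10717 and 1 of 2 of Gm10715. Without MII oocyte 1, a setting chosen after seeing the data, 6 of 18 were called higher, where 232 of 84425 transcripts were. One of the 3 transcripts of Gm26870 had most of its gene's counts at the medians, with a median of 176 CPM in MII and 14.7 CPM in GV oocytes of batch A.

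From GV to MI the 7 genes did not pass the test. With edgeR 0 of 7 genes were called in batch B, where 0.123% of 32444 genes were. That share rests on MI oocyte 15, without which 249 of 32393 genes and 0 of 7 were called. By edgeR 0 of 7 had an unadjusted p under 0.05, against 5427 of all genes. DESeq2 called 0 of 7 as well, where 186 of 32444 genes were. By DESeq2 0 of 7 had an unadjusted p under 0.05, against 2299 of all genes. The labels name no animal and oocytes may share one, so these p-values measure the spread between single oocytes and may be too small. The smallest adjusted p among the 7 was 0.750, and under the 9 alternatives tried for genes the smallest ran from 0.384 to 0.970.

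Summed over the 7, the GV oocytes of batch B had a lowest level of 7.00, a median of 15.8 and a highest of 79.4 CPM, and the MI oocytes 4.85, 9.80 and 122 CPM. GV oocyte 1 was the highest of its group and MI oocyte 15, the library with the fewest counts, the highest of the MI group. The groups overlapped over nearly their whole range, with 1 of 15 MI oocytes above the highest GV oocyte. The ratio of the MI mean to the GV mean was 0.990 and that of the medians 0.622, and without MI oocyte 15 the ratio of means was 0.738.

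Gm26870 was at 3.80, 10.3 and 48.1 CPM in the lowest, median and highest GV oocyte of batch B and at 3.602, 6.87 and 97.8 CPM in the MI oocytes. Its log2 fold change from GV to MI was 0.27 (SE 0.495, adjusted p = 0.83), and -0.35 without MI oocyte 15. Gm10800, the most abundant coding model per kilobase, was at 0.692, 3.13 and 17.4 CPM in GV and at 0.410, 1.69 and 13.9 CPM in MI oocytes. Its log2 fold change was -0.07 (SE 0.521, adjusted p = 0.965), with HTSeq counts 0.22. For both genes the groups overlapped, and the median of the MI oocytes was the lower one.

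The other 5 genes had log2 fold changes of -0.62 (Gm10715), -0.48 (Gm10717), 0.04 (Gm10718), 0.10 (Gm21738) and 0.38 (Gm10801), each smaller than its standard error. The sign changed in at least 1 alternative for 4 of these 5, Gm10715, Gm10718, Gm21738 and Gm10801. In batch B RSEM gave Gm10801 0 counts in 4 of 10 GV and 3 of 15 MI oocytes. HTSeq gave it 6 to 122 counts in the GV oocytes, 0 in MI oocytes 4, 7, 8 and 9, and 1 to 80 in the other MI oocytes. Of the 15 MI oocytes, from 3 (Gm10715) to 11 (Gm10801) lay above the GV median of the gene. Among transcripts, 0 of 18 were called by edgeR, where 0.00228% of 87788 were, and 0 of 18 by DESeq2, where 187 of 87788 were. By edgeR 1 of 18 had an unadjusted p under 0.05, against 15826 of 87788 transcripts. This transcript of Gm10717 (log2 fold change 1.66, edgeR adjusted p = 0.170) is named after its value was seen. It was at 0 in 10 of 10 GV and 12 of 15 MI oocytes.

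**Figure D3:**
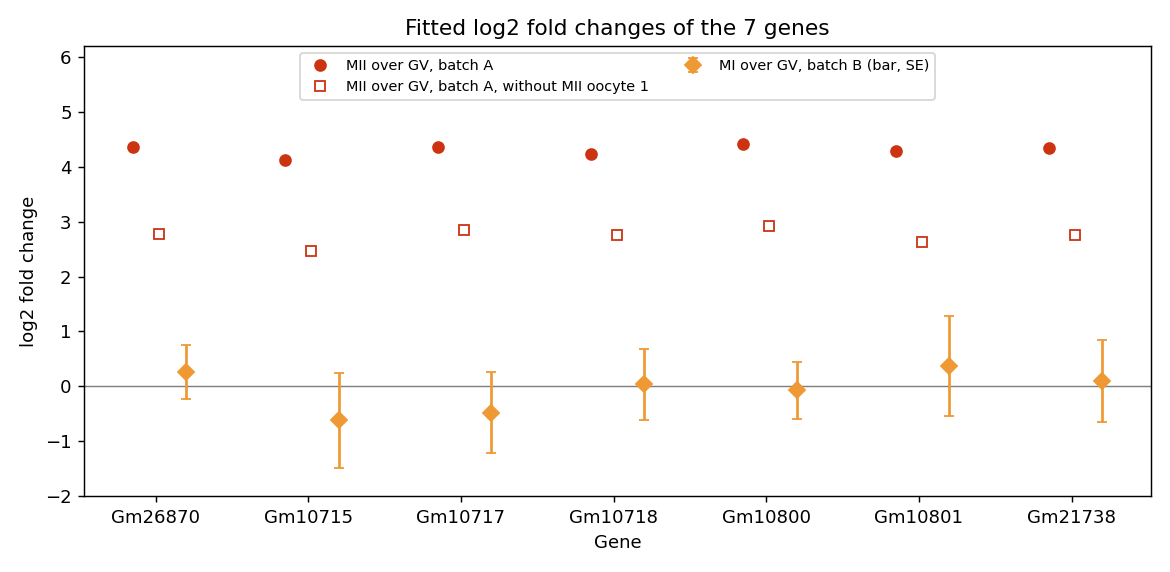
Fitted log2 fold change of the 7 genes: MII over GV in batch A with all oocytes (filled circles) and without MII oocyte 1 (open squares), drawn without error bars because that contrast chose the genes, and MI over GV in batch B (diamonds, bars are 1 SE). In batch A the values run from 4.12 to 4.42, or from 2.46 to 2.92 without MII oocyte 1, and in batch B from -0.62 to 0.38.

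Ordered by the median summed level, the groups were MII of batch A (367 CPM), GV of batch A (33.0), GV of batch B (15.8) and MI of batch B (9.80). The ranges of the MII and GV oocytes of batch A overlapped through GV oocyte 1, those of the GV oocytes of both batches overlapped, as did those of GV and MI oocytes of batch B. Whether the change from GV to MII differs from that from GV to MI was not tested.

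The 7 genes and 6 unchosen relatives, the plus-strand models Gm10719, Gm10720, Gm10721, Gm10722, Gm11168 and Gm17535 in the same chromosome 9 cluster, form 1 sequence family. None of the 25-base words of the 7 genes occurred in an annotated transcript outside these 13 genes, and in the 7 genes 12.7% (Gm10718) to 55.5% (Gm10801) of the words occurred in no other gene. Gm10717 holds 72.5% of the words of Gm10718. Gm26870 shared words with the others on the opposite strand alone, up to 49.5% of its words with 1 gene, Gm10719, and 1470 of its 2692 exon bases (54.6%) lie under exons of the plus-strand models. Since the strand of the reads is not stated, Gm26870 and these partners cannot be told apart by orientation.

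**Figure D4:**
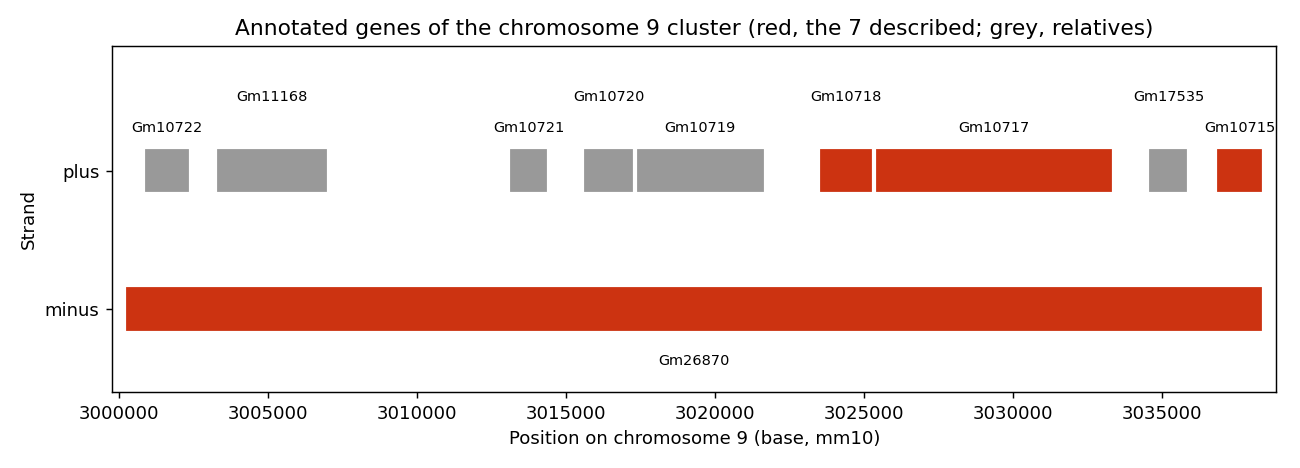
Map of the 10 annotated genes of the cluster at the start of chromosome 9 (mm10), to scale in bases, by strand. Gm26870 on the minus strand, from 3000282 to 3038313, runs along the 9 plus-strand models, of which Gm10715, Gm10717 and Gm10718 (red) are among the 7 genes and 6 (grey) are relatives.

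A repeat length ran through the family. Distances were taken between successive copies of a word within a transcript, with words shorter than the 25 bases used above. The most frequent distance was 234 bases in Gm10715, Gm10717, Gm10718, Gm21738 and Gm26870, 225 bases in Gm10800 and 231 bases in Gm10801. Each of the 13 genes held at least 1 exact copy of the 30-base stretch below, up to 15 copies in Gm10717 and 10 in Gm26870, which is shown because it is the sequence that the whole family has in common. It is written as on the plus strand of Gm10718 (chr9:3023717-3023746, mm10).
Shared stretch: cagtgtgcatttctcatttttcacgttttt

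The next 30 bases show how the copies part, with capitals where a base differs from Gm10718 (chr9:3023747-3023776, plus strand). They are read from Gm10717 at chr9:3025616-3025645 and Gm10715 at chr9:3037077-3037106 on the plus strand, from Gm26870 at chr9:3000448-3000477 on the plus strand, opposite to its transcript, from Gm10801 at chr2:98662271-98662300 on the plus strand and from Gm21738 at chr14:19417301-19417330 on the minus strand. They differ from Gm10718 at 3 to 5 of 30 positions, and the relatives, not shown, at 1 to 3. Gm10800 is not shown, since its next 30 bases do not lie in 1 exon.
Gm10718: cactgattttgtcatttttcaagttgtcaa
Gm10717: caGtgattttgtcatttttTaagttTtcaa
Gm21738: caGtgatttCgtcatttttcaagtCgtcaa
Gm26870: caGtgatttCgtcatttttcaCgtCgtcaa
Gm10801: TaGtgatttCgtcatttttcaagtCgtcaa
Gm10715: caGtgatttCgtcTtttttcaagACgtcaa

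The relatives were measured beside the 7 genes. Their summed level was 0.669, 1.82 and 12.7 CPM in the lowest, median and highest GV oocyte of batch A and 4.79, 19.4 and 212 CPM in the MII oocytes. GV oocyte 1 and MII oocyte 1 were again the highest of their groups. All 6 were called higher at MII by edgeR with all oocytes, where 2.43% of genes were, and 5 of 6 by DESeq2 (592 of 36863 genes). It was 3 of 6 with HTSeq counts (281 of 41296) and 4 of 6 without MII oocyte 1 (397 of 32895). From GV to MI 0 of 6 were called by edgeR, where 40 of 32444 genes were, and 0 of 6 by DESeq2, where 186 of 32444 were. The relatives hold 61.3% to 94.6% of their words in common with the 7 genes and were measured in the oocytes that chose those, so their calls at MII are no independent result.

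Among themselves the 7 genes varied together. Deviations of log2(CPM + 1) from the group mean had a Pearson r of 0.729 to 0.963 over the 21 pairs of genes in 37 oocytes, and of 0.657 to 0.953 in the 36 oocytes without MII oocyte 1. These include the oocytes that chose the genes. Within the 25 oocytes of batch B, r with the sum of the 7 ran from 0.579 (Gm10715) to 0.994 (Gm26870). Each gene is itself part of that sum. Over the 12608 genes with a mean of at least 1 CPM the median r with that sum was -0.215. Reads from shared words may be divided over several genes, and the part of that division in these correlations was not tested.

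Outside the family, the genes most like their sum were sought among the 12608 genes with a mean of at least 1 CPM. The 5 with the highest r over 37 oocytes were the processed pseudogenes Gm48541 (r = 0.904, rho = 0.890), Gm47611 (0.891, 0.866), Gm48082 (0.885, 0.865), Gm48119 (0.877, 0.842) and Gm48260 (0.871, 0.786). With MII oocyte 1 left out of r but kept in the group mean, their r was 0.900, 0.867, 0.857, 0.847 and 0.846. These values are therefore not free of that oocyte. Within the 25 oocytes of batch B r was 0.805 to 0.894. They lie on chromosomes 10, 12 and 13, had 0% of their words in the 7 genes, and shared 25.5% to 62.0% of their words with each other. Their RSEM levels were highest in oocyte 1 of each GV group, in MII oocyte 1 and in MI oocyte 15, as for the sum of the 7 genes, whereas the HTSeq table held at most 0.470 CPM of any of them in an oocyte.

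Measures of the libraries moved with the summed level in part. Over 37 oocytes its deviation had an r of 0.491 (rho 0.468) with the share of ribosomal RNA counts, 0.643 (rho 0.608) within batch B and 0.247 (rho 0.145) within the 11 oocytes of batch A without MII oocyte 1. Its r with total counts was -0.386 (rho -0.268), and -0.461 (rho -0.313) within batch B. With the number of genes detected r was 0.53 in the 11 oocytes of batch A without MII oocyte 1 and -0.478 in batch B. The share of ribosomal RNA was 9.09% to 22.1% in GV and 16.6% to 31.3% in MII oocytes of batch A, and its part in the result was not tested.

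Genes linked to pericentromeric heterochromatin were measured as a list of 30. By edgeR 0 of 30 passed both limits from GV to MII, where 2.62% of genes were called lower and 895 genes higher. At an unadjusted p under 0.05 were 12 of 30, against 9505 of 36863 genes. DESeq2 called 0 as well, where 592 of 36863 genes were higher and 987 lower. With ERCC scaling 3 of 30 were called lower, where 3842 of 36863 genes were. The adjusted p was under 0.05, with a fold change under 2, for 12 of 30 genes by DESeq2, where 3503 of the 17409 genes given an adjusted p were under 0.05 at any fold change, and by edgeR, where 2939 of 36863 were, for 5 that are named after their values were seen, Dnmt1, which was lower at MII, and Trim28, Smarcad1, Sgo2a and Hells, which were higher. The list's median log2 fold change was 0.11, beside 0.27 over all genes, and -0.58 beside -0.39 with ERCC scaling, but it lay above that of all genes without MII oocyte 1 (0.14 beside 0.02) and with filterByExpr (0.15 beside 0.01). From GV to MI 0 of 30 were called by edgeR, where 40 of 32444 genes were, or by DESeq2, where 186 were. At an unadjusted p under 0.05 were 5 and 6 of 30, against 5427 and 2299 of 32444 genes. The summed level of the list was 4160 to 5098 CPM in GV and 3901 to 4646 CPM in MII oocytes of batch A, and 2476 to 7081 CPM in GV and 3406 to 7199 CPM in MI oocytes of batch B, with Dnmt1 the most abundant but in the MII oocytes, where it was Atrx.

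Suv39h2 was the more abundant of the pair of methyltransferase genes, with a median of 171 CPM in GV and 158 CPM in MII oocytes of batch A, both within 134 to 209 CPM. Its log2 fold change was 0.09 (SE 0.176, adjusted p = 0.753), and -0.025 with HTSeq counts and -0.63 with ERCC scaling. Suv39h1 had a median of 2.87 CPM in GV and 1.65 CPM in MII oocytes (log2 fold change -0.58, SE 0.464, adjusted p = 0.424). Cbx5 had a median of 27.1 CPM in GV and 21.96 CPM in MII oocytes (log2 fold change -0.09, SE 0.210, adjusted p = 0.801). From GV to MI Suv39h2, Suv39h1 and Cbx5 had log2 fold changes of 0.30, 0.41 and 0.04, with adjusted p of 0.269, 0.723 and 0.938, and with HTSeq counts Suv39h1 was at -0.0043.

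Of 13 names on a list of RNA surveillance and retrotransposon defence genes 12 were in the table, since Skiv2l2 is an older name of Mtrex. Piwil2, which acts with small RNAs against retrotransposons, was called lower at MII (log2 fold change -1.72, SE 0.588, edgeR adjusted p = 0.0476), 1 of 12 where 2.62% of all genes were called lower. From GV to MI 0 of 12 were called by edgeR, where 0.123% of all genes were, or by DESeq2, where 186 of 32444 were. By either tool 0 of 12 had an unadjusted p under 0.05, against 5427 and 2299 of 32444 genes. From GV to MII it was 5 of 12 by edgeR and 6 of 12 by DESeq2, against 9505 and 5715 of 36863 genes. An adjusted p under 0.05 at any fold change was reached by 2 of 12 with edgeR, against 2939 of 36863 genes. With DESeq2 it was 3 of 12, against 3503 of the 17409 genes given an adjusted p. The level of Piwil2 was 0.395, 1.79 and 7.43 CPM in the lowest, median and highest GV oocyte of batch A and 0.079, 0.473 and 1.39 CPM in the MII oocytes, which overlapped. Under the 6 alternatives tried its adjusted p ran from 0.000607 to 0.0779, and it was called in 1 of the 6, ERCC scaling, and not without MII oocyte 1, where its log2 fold change was -1.56. DESeq2 called Mov10 lower in its place, where 987 of 36863 genes were lower, and so did filterByExpr, where 817 of 12929 were. ERCC scaling called Ago2, Mov10 and Piwil2 lower, where 3842 of 36863 genes were. Ago2 and Mov10 are named after their values were seen. The list's median log2 fold change was 0.16, beside 0.27 over all genes, and without MII oocyte 1 it was 0.21 beside 0.02. Its summed level was 542 to 622 CPM in GV and 562 to 680 CPM in MII oocytes, 293 to 803 CPM in GV and 396 to 1098 CPM in MI oocytes of batch B, with Dicer1 the most abundant.

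Markers of other cells were read beside these results. Of 14 cumulus and granulosa markers 4 were lower at MII by edgeR, Ccnd2, Hsd3b1, Fshr and Inha, where 2.62% of all genes were. DESeq2 called the same 4, where 987 of 36863 genes were lower. In batch B 2 of the 11 tested were lower at MI by edgeR, Ccnd2 and Gja1, where 0.123% of all genes were called. DESeq2 called these 2 and Inhba, where 23 of 32444 genes were lower. With HTSeq counts 6 of 12 were lower. That fit called 2990 of 35354 genes with MI oocytes 4, 8 and 9 and 8 of 35240 without them. Their summed level was 23.7 to 54.5 CPM in GV and 18.6 to 34.7 CPM in MII oocytes of batch A, and 21.7 to 52.5 CPM in GV and 10.3 to 30.8 CPM in MI oocytes of batch B, with Cyp19a1 the most abundant in each group. Foxl2, Amh and Ptx3 were at 0 in all 25 oocytes of batch B, while Ccnd2 reached 10.3 CPM in a GV oocyte of batch A and 8.35 CPM in one of batch B, and Gja1 reached 9.59 CPM in a GV oocyte of batch B. Their part in the result was not tested.

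Of 7 blood and immune markers 3 were called higher at MII by edgeR, Hba-a1, Hbb-bs and Hba-a2, where 2.43% of all genes were. Without MII oocyte 1 it was 0 of 6, where 397 of 32895 genes were higher. By DESeq2 it was 0 of 7, where 592 of 36863 were. From GV to MI 0 of the 5 tested were called by edgeR, where 0.123% of 32444 genes were, or by DESeq2, where 186 were. By either tool 1 of 5 had an unadjusted p under 0.05, against 5427 and 2299 of 32444 genes. The summed level was 14.6 CPM in MII oocyte 1, with Hba-a1 the most abundant, and 0.198 to 0.572 CPM in the other 5 MII oocytes. It was 0 to 0.579 CPM in the GV oocytes of batch A, 1.47 to 7.96 CPM in the GV and 0.898 to 6.61 CPM in the MI oocytes of batch B, where Hbb-bs was the most abundant. Sensory receptor genes, a sum led by Olfr624 in every group, were at 9724 CPM in MII oocyte 1, 5495 to 6667 CPM in the other 5 and 6345 to 11409 CPM in the GV oocytes of batch A. The part of these transcripts in the result was not tested.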

How the data were processed

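Single oocytes were sequenced by Smart-seq2, 37 in 4 groups. The submitters' processing notes name Trim Galore 0.6.4, STAR 2.7.6a, HTSeq 0.12.4, RSEM 1.3.1 and genome build mm10. The deposited HTSeq gene table holds the unit count, and the deposited RSEM gene and transcript tables hold the unit expected count. Expected counts were rounded for the fits. Depth per oocyte was 2709280 to 19390128 RSEM counts, so that 3 counts equal 0.155 to 1.11 CPM.

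Features with at least 1 count over the oocytes compared were fitted in R 4.3.3 with edgeR 4.0.16 (TMM factors, quasi-likelihood F test, spike-ins left out, Benjamini-Hochberg adjustment over all features) and called past a 2-fold change with an adjusted p below 0.05. The standard error is the absolute log2 fold change over the square root of F. Alternatives were DESeq2 1.42.0, RLE factors, filterByExpr, HTSeq counts, ERCC factors, all oocytes with batch, a replicate block, no fold threshold and leaving out oocytes. The fits were tested on simulated data, with the same dispersion for every gene and changes planted only in genes with higher counts. That run did not check genes near the floor or libraries that stood apart.

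Words of 25 bases were compared over the transcripts of GENCODE M21 (GRCm38). Likeness used Pearson r of deviations of log2(CPM + 1) from group means. Intervals are 95% Wilson intervals. The rule for named genes, fixed before the tables were opened but with the members already known, gives the 7 members, their 6 relatives and the other annotated genes at the start of chromosome 9, the 5 genes outside these with the highest r, Suv39h1, Suv39h2 and Cbx5, up to 5 called heterochromatin genes in each direction, and the called RNA surveillance genes. Lists covered pericentromeric heterochromatin, RNA surveillance and retrotransposon defence, oocyte markers, blood and immune markers, sensory receptors, and cumulus and granulosa markers. Members and lists were chosen with earlier results of these data known.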

Additional observations from a re-analysis of the deposited data

Results flagged for a closer look

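In 45 groups of values looked at, 30 values stood apart from the rest of their group, by a gap to the nearest oocyte that was large against the whole range. These 30 are values of GV and MII oocytes, from groups of 6 or 10, and none is from the group of 15 MI oocytes. Their absence does not mean that no MI oocyte stood apart. MI oocyte 15 had 97.8 CPM of Gm26870 where the next, MI oocyte 2, had 51.1. Chance sets apart about 1 in 20 groups of independent, normally distributed values. These groups share oocytes and are skewed, and the rate among them was not measured. That chance rate does not hold for the levels of the 7 genes and their relatives in batch A, since the contrast of those oocytes chose the genes, and these values are given as a description.

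GV oocyte 1 of batch A was far above the other 5 for Gm10800 (33.4 CPM), Gm10715 (3.31), Gm10717 (9.65), Gm10718 (16.6), Gm21738 (4.64) and Gm26870 (139), for the RSEM sum of the 7 genes (209.7), their HTSeq sum (126) and the sum of the 6 relatives (12.7). GV oocyte 4 of batch A was above the others for blood and immune markers, at 0.579 CPM.

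MII oocyte 1 was far above the other 5 for all 7 genes: Gm10800 (793 CPM), Gm10801 (68.4), Gm10715 (54.0), Gm10717 (148), Gm10718 (304), Gm21738 (136) and Gm26870 (3085). It was so too for their RSEM sum (4589), their HTSeq sum (2973), the relatives (212), the genes with a count (29518), the sensory receptor genes with a count (1198) and blood and immune markers (14.6 CPM). MII oocyte 2 was above the others for oocyte markers (9638 CPM) and for cumulus and granulosa markers (34.7 CPM).

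In batch B GV oocyte 1 was above the other 9 for Gm10715 (1.06 CPM), Gm10718 (6.32), Gm21738 (2.19), the relatives (7.32) and the sensory receptor genes with a count (542).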

How the results depend on the processing

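From GV to MI 0 of 7 genes were called by edgeR and under 9 alternatives for genes, and 0 of 18 transcripts by edgeR and under 4 alternatives for transcripts, DESeq2 among both, where filterByExpr tested 3 of the 7 and 5 of the 18. At an unadjusted p under 0.05 there were 0 genes and at most 1 transcript. The number of genes called in batch B, 40, was 186 with DESeq2, 15 with filterByExpr, 2990 with HTSeq counts, 8 with HTSeq counts without MI oocytes 4, 8 and 9, 249 without MI oocyte 15 and 1231 with all 37 oocytes and batch as a covariate. For transcripts the number, 2, was 0 with filterByExpr and 187 with DESeq2. The cause was not tested.

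Of 59 values of the 7 genes from GV to MI under alternatives, 13 had the other sign. With HTSeq counts Gm10800 was at 0.22 and Gm10801 at -0.66, and without MI oocytes 4, 8 and 9 they were at 0.54 and -0.33, and Gm10715 at 0.057. Gm10718, at 0.04 by edgeR, was at 1.72 and 2.04 in these 2 settings. Without MI oocyte 15 Gm10718 was at -0.37, Gm21738 at -0.16 and Gm26870 at -0.35. With all 37 oocytes Gm10718 was at -0.15 and Gm21738 at -0.059. The cause was not tested.

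With a replicate block, which pairs oocytes of the same number, Gm10718 was at -0.66, Gm21738 at -0.54, Gm26870 at -0.17, Gm10801 at 1.47 and Gm10715 at -1.32, and 167 transcripts were called in batch B. The paired numbers had little in common: r was -0.286 to 0.434 over 6 GV and MII pairs, of which 1 was the best match of its number, and -0.12 to 0.0926 over 10 GV and MI pairs, of which 0 were.

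In batch A 0 of 126 log2 fold changes of the 7 genes had the other sign, as their choice by this contrast leads one to expect. From 4.12 to 4.42 they went to 2.46 to 2.92 without MII oocyte 1 and to 4.86 to 6.22 without GV oocyte 1, the last in Gm10717, the one value that moved by more than 1 SD between oocytes. The number of genes called, 1859, was 1097 with HTSeq counts, 4452 with ERCC factors and 1095 with filterByExpr, and 1325 to 2113 in leave-one-out fits. The median of all genes, 0.27, was 0.42 with HTSeq counts, -0.39 with ERCC factors and 0.31 with RLE factors. The ratio of summed means, 17.7, ran from 5.56 to 36.9 under leave-one-out, and was 10.8 per ERCC count and 11.6 without oocyte 1 of both stages, an alternative chosen after seeing the data. That of MI over GV, 0.990, ran from 0.738 without MI oocyte 15 to 1.32 with HTSeq counts without MI oocytes 4, 8 and 9, also chosen after seeing the data, and the ratio of medians was 0.622, or 0.471 with HTSeq counts. So were the transcript fits of batch A without MII oocyte 1 (855 called, against 1260) and with filterByExpr (1252).

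Suv39h2 in batch A was at -0.025 with HTSeq counts and -0.63 with ERCC factors, and Suv39h1 in batch B at -0.0043 with HTSeq counts. In batch A Suv39h1 ran from -1.27 to -0.12 over 6 alternatives and Cbx5 from -0.82 to -0.02. The cause was not tested. In the shallowest library, MI oocyte 15, levels under 1.11 CPM rest on fewer than 3 counts.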
